A study of Mus musculus with 8 samples.

Results

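Cycling luminal-like cells were the cells of PyMT tumor organoids that held luminal over basal keratin transcripts together with transcripts of cell cycle genes. Each well of a plate was taken as 1 cell, and 1100 of 1152 wells had at least 1000 unique molecular identifiers (UMIs, counts of captured transcripts) outside the spike-in RNA and were kept. For every kept cell a keratin ratio, R, was computed as the log2 of (Krt8 + Krt18 + 1) over (Krt5 + Krt14 + 1) in UMIs, and a cycle level, C, as the UMIs of 12 genes (Mcm3, Mcm5, Mcm6, Pcna, Rrm2, Tyms, Top2a, Cdk1, Ccnb1, Ube2c, Cenpf and Birc5) per 10000 UMIs of the cell. Cells in the top 25% of R over the 3 pooled libraries were taken as luminal-like, 275 cells in all, and those above the lowest tercile of C as cycling, 733 cells in all. Both held for 162 cells, and the other 938 cells were the first group they were set against.

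The organoids came from mammary tumors of MMTV-PyMT; MMTV-Cre; Ecadherin-mCFP mice, in which the MMTV promoter drives both the polyoma middle T oncogene and Cre in mammary epithelium and an E-cadherin fusion carries a fluorescent protein. Control lines and SOX4KO lines were made with CRISPR/Cas9, carry these same alleles, and were collected after 4 days of culture with FGF2. Single cells were sequenced from 1 control line (GR17) and 2 SOX4KO lines (GR18 and GR19), and bulk RNA from 2 control lines (WT1 and WT3) and 3 SOX4KO lines (H7, M4 and H4). With 1 control single-cell library, genotype, line, plate and library cannot be told apart, so differences between single-cell libraries carry no test, and their exact intervals cover counting error only.

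In the mammary gland, luminal cells line the duct and alveoli, carry keratins 8 and 18, and include progenitors that divide and give rise to milk-producing cells. Basal cells lie outside them, carry keratins 5 and 14 and are bound to the basement membrane. A dividing cell first makes the enzymes of DNA replication, such as the MCM helicase and ribonucleotide reductase, in S phase, and then the machinery of mitosis, such as cyclin B1 with its kinase Cdk1, in G2 and M.

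The limits of the selection fell in a continuum of cells. The lowest R among luminal-like cells was 0.87 and the highest R left out was 0.86, while the lowest C among cycling cells was 12.51 and the highest C left out lay 0.013 below it. Members had a median R of 2.14, with a range of 0.88 to 5.53, and a median C of 30.7 UMIs per 10000. The median R of the other cells was -1.62 and their median C was 17.7. Members were chosen by these values of R and C, which are given as a description.

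**Figure D1:**
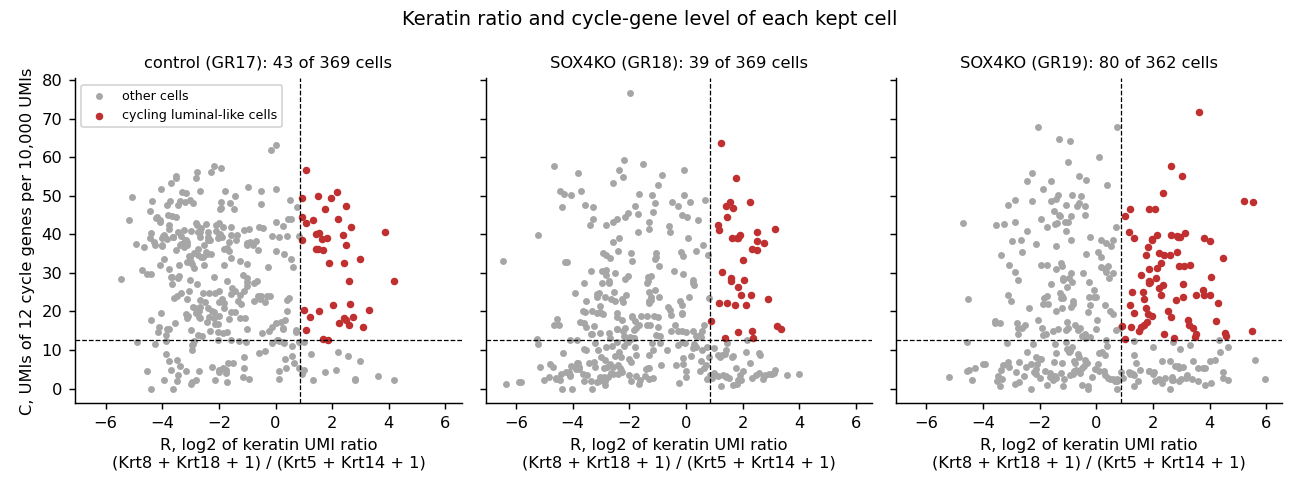
Keratin ratio R (log2, x axis) and cycle level C (UMIs of 12 cycle genes per 10000 UMIs, y axis) of each kept cell in the 3 libraries, with the limits of the selection as dashed lines and cycling luminal-like cells in red. Members numbered 43 in GR17, 39 in GR18 and 80 in GR19, and no gap separates them from the cells around them.

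GR19 gave 80 of its 362 cells (22.1%, exact binomial 95% interval 17.9 to 26.7), GR17 gave 43 of 369 (11.7%, 8.56 to 15.4) and GR18 gave 39 of 369 (10.6%, 7.62 to 14.2). The share was thus higher in 1 SOX4KO line than in the other SOX4KO line and in the control, and the intervals of GR17 and GR18 overlap. Among luminal-like cells the cycling share was 74.1% (43 of 58, 61.0 to 84.7) for GR17, 48.8% (39 of 80, 37.4 to 60.2) for GR18 and 58.4% (80 of 137, 49.7 to 66.7) for GR19. Of all kept cells, 15.7% were luminal-like in GR17, 21.7% in GR18 and 37.8% in GR19, while 81.3%, 58.5% and 59.9% were cycling. The control library therefore held few luminal-like cells, most of them cycling, and both SOX4KO libraries held a larger share of luminal-like cells below the limit of C. When the limits were set within each library, which fixes the luminal-like and cycling shares to be alike, members made up 13.8% of GR17, 14.1% of GR18 and 15.7% of GR19.

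Members were deeper than the other cells of the same library. Their median was 24152 UMIs in GR17, 34451 in GR18 and 27707 in GR19, against 19175, 19400 and 20534 in the other cells. Per UMI of spike-in RNA, members held 142, 87.8 and 165 UMIs in GR17, GR18 and GR19, and the other cells 123, 59.3 and 119. Members had a median of 5119, 5990 and 5455 genes per cell as deposited, and 2103, 2143 and 2117 after each cell was thinned to 5000 UMIs, at which depth the other cells had 2132, 2141 and 2091. The thinned values leave out 1 member of GR18 and 8, 3 and 4 of the other cells, which held fewer UMIs. Selection on thinned cells gave 158 members, at 11.4% of GR17, 10.4% of GR18 and 22.1% of GR19. Doublets were not called, and 2, 7 and 7 members held over 2 times the median UMIs of their library. All 384 well names recur in every library as plate positions, so shared names do not mark shared cells.

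The members were not free of basal keratins. Krt14 was detected in 151 of 162 members (93.2%, interval 88.2 to 96.6) and Krt5 in 116 (71.6%), at medians of 1.89 and 0.55 UMIs per 10000, against 14.7 and 8.39 in cycling cells outside the top 25% of R. Only 5 members, all in GR19, held no UMI of either gene. The sum of Krt5 and Krt14 had a median of 7 UMIs per member and that of Krt8 and Krt18 a median of 35. Members therefore ranked as luminal by the ratio of keratins and not by the absence of the basal ones.

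The label markers were higher in members than in all other cells in all 3 libraries. Against luminal-like cells below the limit of C, none of the 5 was 2-fold higher or lower in every library. Of these 5, 1 was higher and 2 were lower in each library, with a median log2 difference of -0.23 against 0.07 over all genes. Mal2, Cldn7, Csn3, Car2 and Gabrp were each at least 2-fold higher in members than in the other cells of every library, on the scale of log2 of (CPM + 1), where CPM is the UMIs of a gene per 1000000 UMIs summed over cells. Across all 6291 genes compared, 24 (0.381%) were at least 2-fold higher in every library and 84 (1.34%) at least 2-fold lower. Over the remaining libraries the counts were 38 and 142 without GR17 and 44 and 95 without GR19. Because R was measured on these same cells, such differences describe the selection and are no test of it. Lists for fibroblasts, endothelium and immune cells had no gene at an average of 20 CPM or more. Their summed levels in members were 5.69 to 7.32 CPM, 0.836 to 2.75 CPM and 0.915 to 3.06 CPM over the 3 libraries, and Ptprc, which marks leukocytes, had no UMI in any member.

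Csn3, which encodes kappa-casein, the protein that stabilizes casein micelles in milk and is listed on chromosome 5, was the label marker whose level varied most among members. It stood at 427 CPM in members of GR17, 945 CPM in GR18 and 3234 CPM in GR19, against 47.6, 293 and 1193 CPM in the other cells. In GR17 only 22 of 43 members held a Csn3 UMI and the median member had 0.32 UMIs per 10000, whereas all 39 members of GR18 and all 80 of GR19 held one, with medians of 7.04 and 31.1. The highest member of GR17 had 30.6 UMIs per 10000. Over the 3 libraries, Csn3 was detected in 87.0% of members at a median depth of 27507 UMIs, and in 52.5% of cycling cells outside the top 25% of R at a median of 21831 UMIs.

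By detection pooled over libraries, the other 4 label markers separated members more sharply from cycling cells of low R than Csn3 did. GR17, GR18 and GR19 gave 43, 39 and 80 members but 257, 177 and 137 cycling cells of low R. The pooled shares, also those of Csn3, therefore mix library with population. Gabrp, a subunit of the GABA-A receptor, was detected in 73.5% of members and 9.11% of cycling cells of low R. Mal2, which takes part in transport to the apical membrane, was detected in 63.6% and 7.36%. Cldn7, a claudin of epithelial junctions, was detected in 75.9% and 15.6%, and Car2, a carbonic anhydrase, in 86.4% and 35.7%, at the same median depths as for Csn3.

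Mal2 and Car2 followed the same order of libraries among members as Csn3. Mal2 stood at 26.5 CPM in GR17, 54.3 in GR18 and 113 in GR19. Car2 stood at 58.6, 173 and 371 CPM. Gabrp was highest in GR18 (106 CPM) and lowest in GR17 (40.3 CPM), with 73.6 CPM in GR19. Cldn7 went the other way, with 110 CPM in GR17, 61.0 in GR18 and 82.8 in GR19. The exact Poisson intervals of GR17 and GR19 did not overlap for Csn3, Car2, Mal2 or Gabrp, and they overlapped for Cldn7 (91.1 to 131 and 71.4 to 95.4 CPM).

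**Figure D2:**
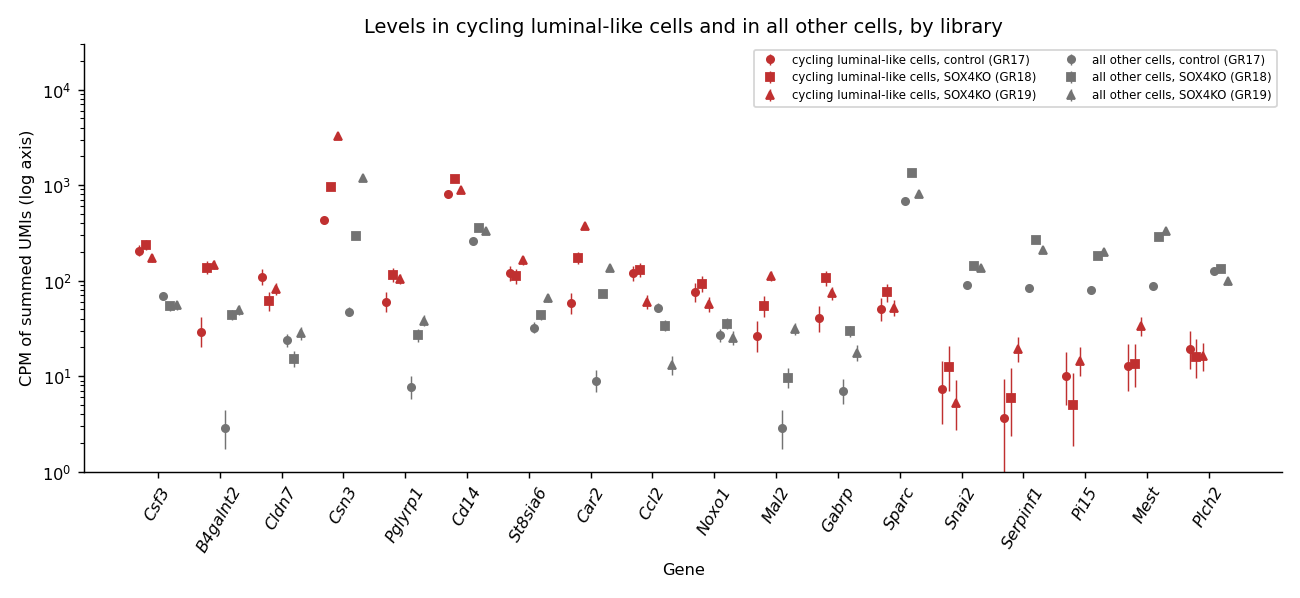
CPM of summed UMIs (y axis, log scale) of the 10 genes ranked highest in members, of Mal2 and Gabrp, and of the 6 genes ranked lowest, in cycling luminal-like cells (red) and all other cells (grey) of each library, with exact Poisson 95% intervals. Red points lie above the grey points of the same library for the first 12 genes and below them for the last 6; the lower interval end of Serpinf1 in GR17, at 0.998 CPM, meets the edge of the axis.

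Genes of innate defence and of glycan synthesis stood beside the label markers among the 10 genes highest in members. This ranking used the smallest difference from all other cells over libraries. Csf3, the granulocyte growth factor G-CSF, was at 207, 238 and 172 CPM in members of GR17, GR18 and GR19 and at 68.7, 53.9 and 55.4 CPM in the other cells, a mean log2 difference of 1.77 ± 0.31 (SD, n = 3 libraries). Cd14, the co-receptor for bacterial lipopolysaccharide and a marker of luminal progenitors, was at 809, 1169 and 885 CPM against 258, 355 and 331 CPM. Pglyrp1, a peptidoglycan-binding protein, differed by a mean log2 of 2.11 ± 0.70.

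Csf3 was also higher in members than in luminal-like cells that were not cycling, by 2-fold or more in GR18 alone. In those cells it stood at 123, 95.4 and 113 CPM in GR17, GR18 and GR19. Detection was pooled over libraries, which gave unlike numbers of each population. Csf3 was detected in 72.8% of members (65.3 to 79.5), 38.9% of non-cycling luminal-like cells and 41.2% of cycling cells of low R. The median depths were 27507, 20639 and 21831 UMIs. Ccl2, a chemokine for monocytes, was at 120, 130 and 59.5 CPM in members and at 19.2, 29.0 and 15.8 CPM in non-cycling luminal-like cells. Its reads were concentrated, since 1 cell gave 32.8%, 35.5% and 27.2% of the members' Ccl2 UMIs in GR17, GR18 and GR19, and 42.6% of members held any. Noxo1, an organizer of the epithelial NADPH oxidase, B4galnt2 and St8sia6, which add sugars to glycans, and the label markers Cldn7, Csn3 and Car2 completed the 10. Cd14 was detected in 99.4% of members and 98.2% of non-cycling luminal-like cells, and B4galnt2 in 70.4% and 69.0%. Pglyrp1 was detected in 65.4% and 54.0%, St8sia6 in 83.3% and 71.7%, and Noxo1 in 74.1% and 62.8%, at the median depths given for Csf3. The rank of these genes therefore does not set members apart from non-cycling luminal-like cells.

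Of a list of chemokines and cytokines drawn up after the values had been seen, 11 of 21 genes reached 20 CPM. Of these, 3 (Csf3, Ccl2 and Ccl20) were at least 2-fold higher than in the other cells of every library. Over all genes the share was 0.381%. The median log2 difference was 1.13 against 0.01 over all genes. Against non-cycling luminal-like cells, 2 of 11 were higher and 3 lower in every library, beside 1940 and 1369 of 6164 genes. The median there was 0.15 against 0.07 over all genes. Ccl20, which attracts lymphocytes to epithelia, was at 41.2, 101 and 31.5 CPM in members and 18.4, 13.1 and 10.1 CPM in the other cells. A single cell gave 57.0% of its UMIs among members of GR18. Cxcl1, a neutrophil chemokine, was at 741, 1309 and 671 CPM in members and 493, 446 and 331 CPM in the other cells, and so passed 2-fold in 2 of 3 libraries.

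Luminal genes outside the rule were not evenly higher in members. Of 12 luminal genes compared, 3 were at least 2-fold higher than in the other cells of every library (Cd14, Krt19 and Cldn3). None was 2-fold lower, beside 0.381% of all genes higher and 1.34% lower. The median log2 difference was 0.81 against 0.01 over all genes. Against non-cycling luminal-like cells, 0 of 12 were higher and 7 were lower in every library, beside 1940 and 1369 of 6164 genes. Krt19, a keratin of simple epithelium, was at 45.8, 45.2 and 61.3 CPM in members of GR17, GR18 and GR19 and at 11.6, 20.7 and 21.6 CPM in the other cells. Krt7, another keratin of simple epithelia, went the opposite way, at 238, 181 and 288 CPM in members and 566, 360 and 458 CPM in the other cells. Epcam, a surface protein of all epithelium, was at 330, 245 and 219 CPM against 355, 266 and 266 CPM.

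Against cycling cells of low R, which share the limit of C, 6 of the 12 luminal genes were at least 2-fold higher in every library, among them Elf5, Elf3 and Ehf, transcription factors of the ETS family. Elf5, the factor of alveolar progenitors, was at 33.0, 30.9 and 105 CPM in members and 4.98, 5.09 and 38.1 CPM in cycling cells of low R. In this comparison 71 of 6271 genes (1.13%) were at least 2-fold higher and 87 (1.39%) lower. Kit, a receptor of luminal progenitors, was under the limit of 20 CPM, at 7.32, 8.36 and 9.19 CPM in members, 42.2, 24.1 and 14.2 CPM in non-cycling luminal-like cells and 0 to 0.73 CPM in cycling cells of low R.

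Most secretory genes compared were lower in members than in non-cycling luminal-like cells. Lcn2, a siderophore-binding protein, was at 5829, 11645 and 9124 CPM in members of GR17, GR18 and GR19, at 2279, 4957 and 5178 CPM in the other cells and at 9025, 12635 and 11802 CPM in non-cycling luminal-like cells. Of 8 secretory genes compared with all other cells, Csn3 alone was 2-fold higher in every library, beside 0.381% of all genes. Of 9 compared with non-cycling luminal-like cells, 7 were lower in every library, none of them by 2-fold. The median log2 difference of the 9 was -0.49 against 0.07 over all genes. Csn2 and Wap, the beta-casein and whey acidic protein genes of lactation, had 0 and 1 UMI in all members.

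Of the list of hormone-sensing genes, Cited1, Prlr and Foxa1 reached 20 CPM. Of these, Cited1 alone was at least 2-fold higher in members in every library, beside 0.381% of all genes. Cited1, a transcriptional co-activator, was at 65.0, 70.2 and 24.96 CPM in members and 6.19, 20.1 and 6.98 CPM in the other cells. Prlr, the prolactin receptor, was at 107, 147 and 181 CPM in members and 38.2, 91.0 and 116 CPM in the other cells. The estrogen receptor gene Esr1 was at 0 to 2.51 CPM in members and the progesterone receptor gene Pgr at 0 to 0.92 CPM. The other 8 of the 11 genes of this list were under 20 CPM, and the levels of Foxa1 are given with the SOX4KO comparison.

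Junction genes differed from one another in direction. Of 15 junction and epithelial genes, 4 were at least 2-fold higher than in the other cells of every library (Cldn3, Cldn7, Tjp3 and Mal2). Over all genes the share was 0.381%. Another 3 were lower in each library, none of them by 2-fold. Against non-cycling luminal-like cells, 1 of 16 was higher and 10 were lower in every library, beside 1940 and 1369 of 6164 genes. None passed 2-fold there, and the median log2 difference was -0.31 against 0.07 over all genes. Tjp3, a scaffold of the tight junction, was at 48.5, 67.7 and 43.8 CPM in members and 17.8, 19.7 and 15.0 CPM in the other cells. Dsp, which anchors desmosomes to keratin, was lower in members, at 205, 175 and 220 CPM against 370, 454 and 470 CPM, and so was Pkp3 of the same junction. Cdh1, which encodes E-cadherin, was at 259, 212 and 211 CPM in members and 214, 199 and 207 CPM in the other cells.

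The 6 genes ranked lowest in members included Sparc, Snai2 and Serpinf1. Sparc, a matrix protein, was at 50.4, 75.3 and 52.1 CPM in members of GR17, GR18 and GR19 and at 682, 1341 and 802 CPM in the other cells. Snai2, a transcription factor of basal cells and of epithelial to mesenchymal transition, was at 7.32, 12.54 and 5.25 CPM against 89.7, 142 and 136 CPM. Serpinf1, which encodes the anti-angiogenic factor PEDF, was at 3.66, 5.85 and 19.3 CPM against 83.5, 269 and 208 CPM. Pi15, a secreted inhibitor, Mest, an imprinted gene, and Plch2, a phospholipase C, made up the 6, with mean log2 differences of -3.83, -3.42 and -2.72.

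Of 7 basal genes compared outside the rule, 4 were at least 2-fold lower in members in every library (Sparc, Snai2, Krt17 and Trp63). Over all genes the share was 1.34%. The median log2 difference was -2.52 against 0.01 over all genes. Trp63, the master factor of basal epithelium, was at 10.1, 19.2 and 10.1 CPM in members and 58.3, 90.4 and 85.8 CPM in the other cells. Vim, an intermediate filament of mesenchymal and basal cells, was at 488, 569 and 698 CPM in members and 754, 816 and 684 CPM in the other cells. Ccnd2, a D-type cyclin, was also lower in members, at 18.3, 21.7 and 6.13 CPM against 85.8, 82.0 and 64.9 CPM, whereas Ccnd1, the D-type cyclin of luminal cells, was at 898, 778 and 947 CPM against 974, 786 and 850 CPM.

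Genes of the cell cycle that the rule did not use were higher in members than in luminal-like cells below the limit of C. Against the 113 luminal-like cells in the lower tercile of C (15, 41 and 57 cells in GR17, GR18 and GR19), 25 of 28 S phase genes and 34 of 40 G2/M genes were at least 2-fold higher in members in every library, and none was lower, beside 189 of 6164 genes (3.07%) higher and 20 (0.324%) lower over all. The median log2 differences were 2.66 and 2.58. The groups were split by C, which was measured on cycle genes of these same cells. These differences are therefore set in part by the rule and are no test of it. The minimum of 20 CPM is an average over both groups, so a gene can pass it through members alone. Chaf1b, a chaperone of new histones, was at 106, 101 and 108 CPM in members and 7.66, 19.3 and 8.69 CPM in non-cycling luminal-like cells. Mki67, the antigen Ki-67, was at 271, 258 and 350 CPM against 34.5, 41.0 and 86.9 CPM. Prc1, which bundles microtubules in the dividing cell, was at 130, 151 and 94.1 CPM against 3.83, 7.24 and 9.48 CPM, the last 3 values resting on few cells.

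Members had cycle transcripts at about the level of cycling cells of low R. Of 28 S phase and 44 G2/M genes compared with those cells, none was 2-fold higher or lower in every library, and the median log2 differences were 0.07 and -0.19 against -0.03 over all genes. Both populations share the limit of C, so their likeness is set in part by the rule. The UMIs of the G2/M list over those of the S phase list came to 1.88, 1.60 and 1.73 in members of GR17, GR18 and GR19 and to 1.79, 2.16 and 2.01 in cycling cells of low R. More G2/M than S phase UMIs were held by 74.4% (58.8 to 86.5), 64.1% (47.2 to 78.8) and 73.8% (62.7 to 83.0) of members in the same order of libraries, and these intervals overlap.

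**Figure D3:**
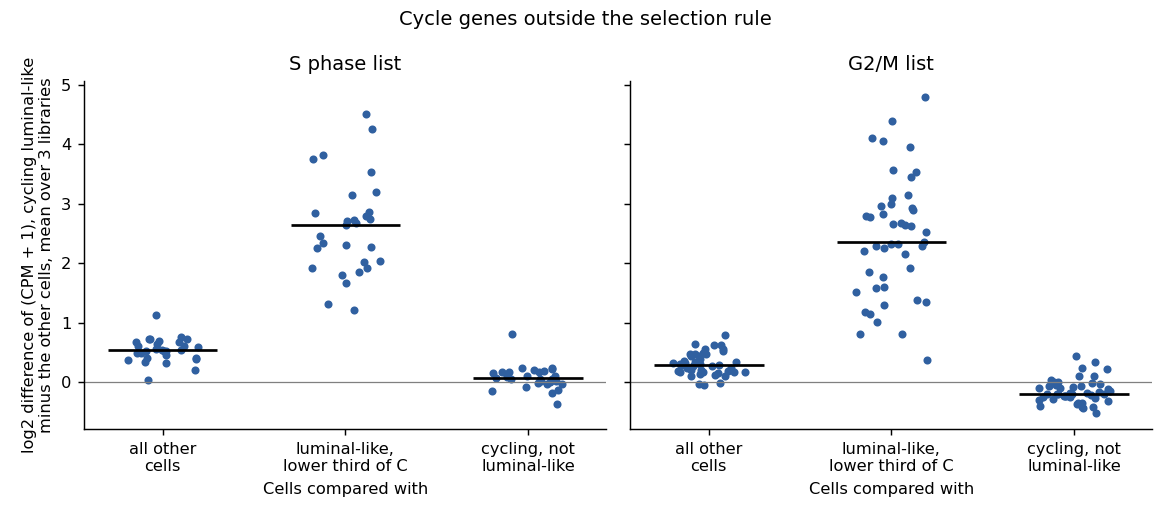
Differences of log2 (CPM + 1) between cycling luminal-like cells and each of 3 other populations (y axis, mean over 3 libraries), with 1 point for each S phase or G2/M gene outside the rule and a line at the median of the points. The points lie above 0 against non-cycling luminal-like cells and around 0 against cycling cells that are not luminal-like; genes under 20 CPM are drawn too, so medians differ slightly from those over the genes compared.

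The promoters of 3 cycle genes of the rule are shown with matches to CCAAT, which NF-Y binds, to the cell cycle homology region (CHR) or to E2F sites, letters that occur in promoters of many cycle genes. They are 250 bases before the transcription start from RefSeq on GRCm38.p6, a later build than that of the deposited counts, and run from 5′ to 3′ on the strand of the gene. In Cdk1 (chr10:69352913-69353162, minus strand), the kinase of mitosis, capitals mark CCAAT and TTTGAA on either strand. In Ccnb1 (chr13:100786487-100786736, minus strand), its cyclin partner, capitals mark CCAAT. In Mcm5 (chr8:75109259-75109508, plus strand), a subunit of the replicative helicase, capitals mark only TTTGGCGC on the reverse strand. The 2 CCAAT matches of Mcm5 are left in lower case.
Cdk1: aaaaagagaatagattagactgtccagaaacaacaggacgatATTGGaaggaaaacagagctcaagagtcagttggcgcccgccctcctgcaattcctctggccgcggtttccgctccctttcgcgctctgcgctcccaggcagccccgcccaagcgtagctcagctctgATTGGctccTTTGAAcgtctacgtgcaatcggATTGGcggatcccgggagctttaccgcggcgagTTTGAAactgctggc
Ccnb1: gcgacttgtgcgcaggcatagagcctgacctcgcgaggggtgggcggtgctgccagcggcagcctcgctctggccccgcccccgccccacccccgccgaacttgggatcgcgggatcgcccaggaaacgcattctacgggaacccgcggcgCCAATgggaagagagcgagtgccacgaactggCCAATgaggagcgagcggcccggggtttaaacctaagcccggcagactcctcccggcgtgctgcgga
Mcm5: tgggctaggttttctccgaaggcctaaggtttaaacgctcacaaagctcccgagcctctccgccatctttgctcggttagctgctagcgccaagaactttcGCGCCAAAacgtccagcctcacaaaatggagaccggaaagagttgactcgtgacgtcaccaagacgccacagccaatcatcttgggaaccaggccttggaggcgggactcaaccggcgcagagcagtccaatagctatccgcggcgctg

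Over the 250 bases before the start, searched on both strands, CCAAT was present in 10 of 12 promoters of the cycle genes of the rule (83.3%). It was in 36 of 43 promoters of the G2/M list (83.7%), 13 of 27 of the S phase list (48.1%) and 33.9% of all 32851 promoters. All 12 genes of the rule, 39 of 45 G2/M genes and 22 of 29 S phase genes had an entry. TTTGAA or TTCGAA, the letters searched for the CHR, was in 3 of 12 promoters of the rule genes (25%), 41.9% of G2/M promoters, 14.8% of S phase promoters and 17.2% of all promoters. TTTCCCGC or TTTGGCGC, the letters searched for E2F, was in 2 of 12 promoters of the rule genes (16.7%), 6 of 27 S phase promoters (22.2%), 1 of 43 G2/M promoters (2.33%) and 1.3% of all promoters. These are matches of letters and not measured binding.

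SOX4KO members were compared with control members in the next step, since the series was made to learn what loss of SOX4 does in these organoids. In both SOX4KO libraries, 96 of 6196 genes (1.55%) were at least 2-fold higher than in GR17 members and 43 (0.694%) at least 2-fold lower. In the other cells of the same libraries 134 of 6316 genes (2.12%) were higher and 29 (0.459%) lower. Of the 96 genes, 44 were also among the 134, and of the 43 genes 14 were also among the 29. Both comparisons rest on the 1 control library. When GR19 was left out, 177 genes were higher and 118 lower in members of GR18 than of GR17, and when GR18 was left out, 143 were higher and 121 lower in those of GR19.

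Sox4 itself was not lower in members of both SOX4KO libraries. It stood at 96.1 CPM in GR17 (78.6 to 116), 60.2 CPM (47.1 to 75.8) in members of GR18 and 115 CPM (102 to 130) in those of GR19. In the bulk lines it was at 295 and 374 CPM in WT1 and WT3 and 199, 179 and 299 CPM in H7, M4 and H4 (log2 fold change -0.57 ± 0.25 SE, edgeR quasi-likelihood adjusted p = 0.277). The paper reports indels in SOX4KO lines and absence of SOX4 protein by western blotting. These RNA levels do not check the knockout at the level of protein, and the cause of the remaining Sox4 RNA was not tested.

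Csn1s1 and B4galnt2 were among the 10 genes ranked highest in SOX4KO members. Csn1s1, the gene of alpha-S1-casein, was at 207 CPM in members of GR17, 1455 CPM in GR18 and 1106 CPM in GR19, and at 24.2, 555 and 554 CPM in the other cells. It was detected in 19 of 43, 38 of 39 and 77 of 80 members, and 1 cell gave 43.8% of its UMIs in GR17. B4galnt2, a glycan-modifying enzyme, was at 29.3, 136 and 147 CPM in members. Csn3, Mal2 and Car2, whose levels are given above, also passed 2-fold in both SOX4KO libraries, as did Ltf, which encodes lactoferrin, at 2.75, 20.9 and 65.2 CPM. Of 9 secretory genes compared, 3 were at least 2-fold higher in SOX4KO members and none lower, beside 1.55% and 0.694% of all genes. The median log2 difference was 0.82 against 0.01 over all genes.

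The promoter of Csn1s1 (chr5:87665958-87666207, plus strand, RefSeq on GRCm38.p6) is shown because casein genes are known targets of STAT5, which reads TTCNNNGAA, and capitals mark that motif. It occurs in 7.02% of all promoters, in the 250 bases before the start, and in 3 of 14 of the secretory list. This motif was chosen after the data had been seen. The promoters of Csn3, Car2 and Mal2 are not shown.
Csn1s1: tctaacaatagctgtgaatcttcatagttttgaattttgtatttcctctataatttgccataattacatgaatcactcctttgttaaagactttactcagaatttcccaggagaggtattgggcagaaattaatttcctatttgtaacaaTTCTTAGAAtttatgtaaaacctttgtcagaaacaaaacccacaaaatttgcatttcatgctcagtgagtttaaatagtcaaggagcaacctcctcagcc

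Cxcl2, a neutrophil chemokine, ranked among the 10 genes highest in SOX4KO members, and 1 cell carried most of it. It had no UMI in 43 members of GR17, 230 CPM in GR18 and 8.32 CPM in GR19, and 1 cell gave 82.5% of its UMIs in GR18. It was detected in 8.02% of members over the 3 libraries and in 2.45% of cycling cells of low R. Serinc3, a membrane protein, was at 82.4, 301 and 592 CPM, Lgals9, a lectin, at 138, 542 and 494 CPM, and Col11a1, a fibrillar collagen, at 47.6, 146 and 191 CPM in members of GR17, GR18 and GR19. These 3 genes differed in the same direction in the other cells, by log2 differences of 1.58 and 2.70, 1.22 and 1.05, and 1.60 and 1.65.

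Foxa1 and Cdkn1a were among the genes lower in SOX4KO members. Foxa1, a pioneer factor of luminal identity, was at 330 CPM (297 to 366) in members of GR17, 125 CPM (105 to 146) in those of GR18 and 109 CPM (95.9 to 123) in those of GR19, and at 174, 68.8 and 77.8 CPM in the other cells. Cdkn1a, the gene of the CDK inhibitor p21, was at 533 CPM (490 to 578) in members of GR17, 219 CPM (193 to 247) in those of GR18 and 225 CPM (206 to 245) in those of GR19. In the other cells Cdkn1a was at 233, 229 and 146 CPM, so that its difference between libraries was larger in members, by log2 -1.28 and -1.24 against -0.03 and -0.67. The difference between the populations was not tested.

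Ly6d, a surface protein of epithelial cells, and Inhba, an activin subunit, showed the same contrast between members and other cells. Ly6d was at 138, 19.2 and 21.5 CPM in members and 195, 91.0 and 122 CPM in the other cells. Inhba was at 122, 38.5 and 25.8 CPM in members and 98.2, 73.4 and 59.4 CPM in the other cells. Nkd2, which restrains Wnt signalling, Tes, a focal adhesion protein, Tmsb10, which binds actin, and Idh2, the mitochondrial isocitrate dehydrogenase, made up the 8 lowest, with log2 differences in members between -1.12 and -1.80.

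**Figure D4:**
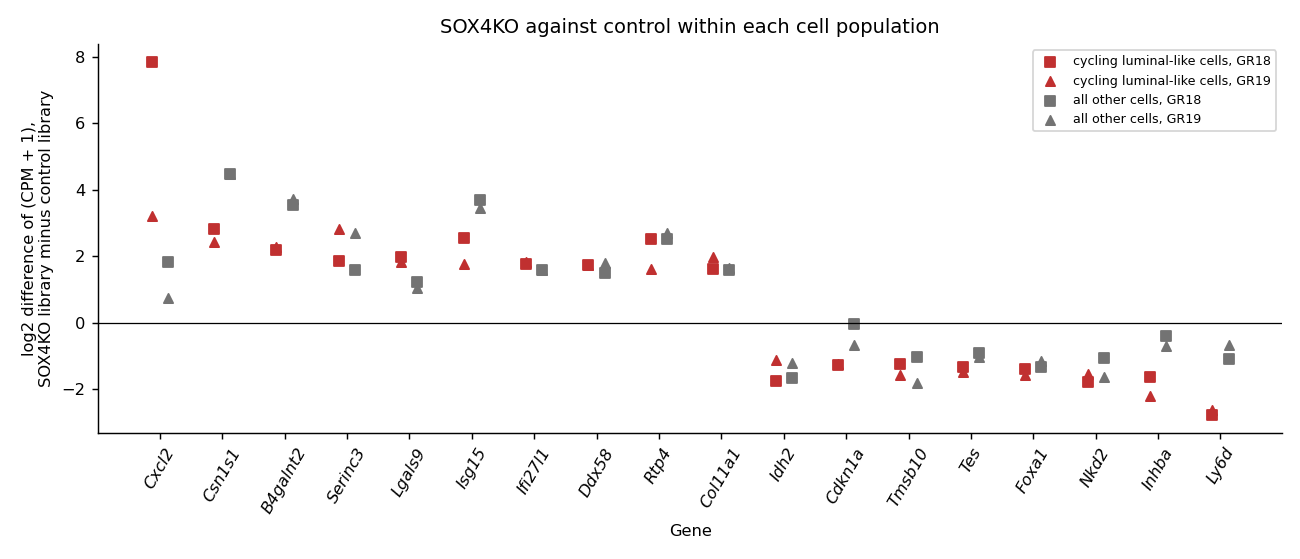
Log2 differences of (CPM + 1) between each SOX4KO library and the control library (y axis) for the 10 genes ranked highest and the 8 ranked lowest in SOX4KO members, in cycling luminal-like cells (red) and in all other cells (grey). The grey points lie on the same side of 0 as the red ones for all 18 genes, and Cxcl2 in GR18 (7.85) rests on 1 cell.

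Between SOX4KO and control members, no gene of 28 in S phase or 44 in G2/M passed 2-fold in both SOX4KO libraries. In both libraries 9 of the S phase genes were lower and 16 higher, and 26 of the G2/M genes were lower and 6 higher. Over all 6196 genes, 2194 were lower and 2405 higher in both. The median log2 differences of the S phase and G2/M lists were 0.11 and -0.18. In the other cells the same medians were -0.62 and -0.40, again with no gene past 2-fold in both. Since all members lie above 1 limit of C while the other cells include those under it, this contrast is set in part by the rule. Of 13 CDK inhibitors, D cyclins and related genes, Cdkn1a and Cdkn2b, the gene of the CDK inhibitor p15, were at least 2-fold lower. Over all genes the share was 0.694%. Cdkn2b was at 37.5, 8.36 and 16.6 CPM.

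Interferon-stimulated genes, a list drawn up after the values had been seen, were higher in SOX4KO members. Of 22 genes, 13 reached 20 CPM on average in members, and 12 of these were higher in both SOX4KO libraries, beside 2405 of 6196 over all genes. At least 2-fold higher were 8 of the 13, beside 1.55% of all genes. The median log2 difference was 1.78 against 0.01 over all genes. The average includes the SOX4KO libraries, so a gene can reach 20 CPM through these alone. Irf7, the factor that amplifies interferon signalling, was at 2.75 CPM in GR17 (3 UMIs, interval 0.57 to 8.03), 71.9 CPM in GR18 and 64.4 CPM in GR19. Isg15, a ubiquitin-like protein, was at 20.1, 121 and 70.1 CPM, and 1 cell gave 50% of its UMIs in GR17. The other cells showed the same direction, with 12 of 14 genes at least 2-fold higher, beside 2.12% of all genes. Their median log2 difference was 1.96 against -0.02 over all genes, so the difference was not particular to members.

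In the bulk lines most genes of the list had a negative fold change, with M4 and H4 lowest for the genes named here other than Ifi27l1. All 22 genes were tested, 20 had a log2 fold change below 0 and the median was -0.77, against 0.01 over all genes. Irf7 was at 1151 and 1084 CPM in WT1 and WT3 and at 1057, 202 and 357 CPM in H7, M4 and H4. Oasl2, an interferon-induced synthetase-like protein, was at 510 and 379 CPM and at 479, 72.0 and 132 CPM. H7 thus lay near the controls for Irf7 and Oasl2. For Oas1a it was at 62.9 CPM against 110 and 100 CPM in WT1 and WT3. For Psmb8 it was at 80.1 CPM against 136 and 109 CPM. Of the 22 genes, Oas1a and Psmb8 were called lower at an adjusted p under 0.1 (edgeR quasi-likelihood, adjusted p = 0.0761 and 0.0626). Over all genes 2.17% were called lower. None of the list was called higher. Of the 13 genes above, 12 had a bulk fold change below 0, the exception being Ifi27l1, at 1.75 and 1.82 in GR18 and GR19 members and 0.92 in bulk. The labels do not tell which bulk line, if any, matches a single-cell library, and the part of line, culture or library in the opposite directions was not tested.

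**Figure D5:**
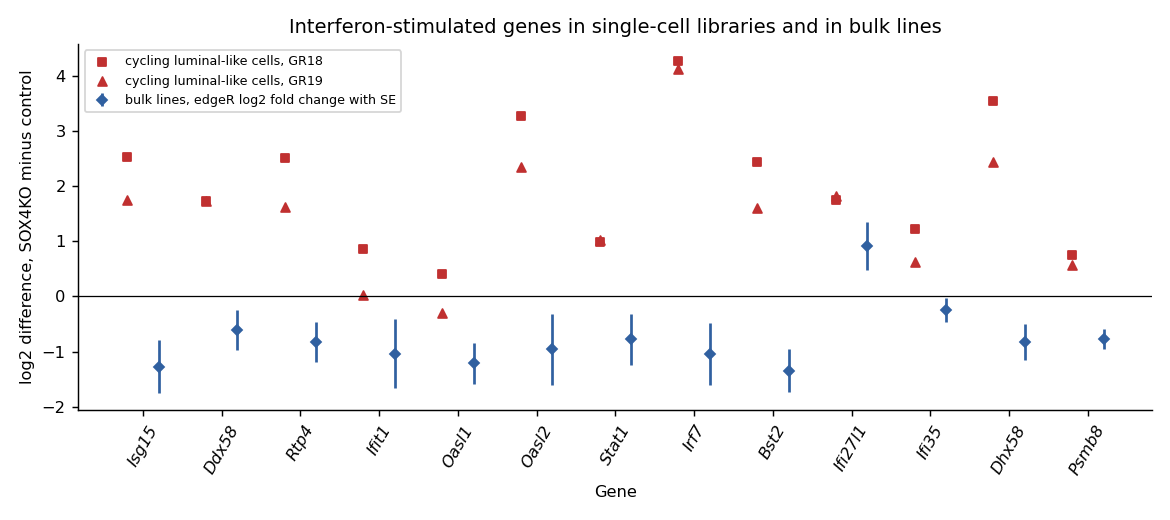
Log2 differences between SOX4KO and control (y axis) for 13 interferon-stimulated genes, as (CPM + 1) of each SOX4KO library against the control library in cycling luminal-like cells (red) and as the edgeR fold change with its SE in bulk lines (blue, 3 lines against 2). Red points lie above 0 for 12 genes in both libraries and blue points below 0 for 12 genes, with Ifi27l1 above 0 in both.

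Bulk RNA gave the only replicated test, on samples that the selection of cells did not use, but it holds all cells of a line, in which fewer cells of a type and less RNA per cell cannot be told apart. Of 11682 genes tested, 733 (6.27%) were called between SOX4KO and control lines at an adjusted p under 0.1, with 479 (4.1%) higher and 254 (2.17%) lower. These counts were 93 and 37 without WT1, 30 and 26 without WT3 and 624 and 382 without M4. None of the 5 label markers was called. Csn3 was at 337 and 271 CPM in WT1 and WT3 and at 741, 165 and 2287 CPM in H7, M4 and H4 (log2 fold change 1.81 ± 0.86 SE, adjusted p = 0.32), so that the SOX4KO lines lay on both sides of the controls. Of the 10 genes highest in members, 9 were tested and none was called, with a median log2 fold change of 0.52.

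Of the 6 genes lowest in members, 5 were called higher in bulk SOX4KO lines and none lower, beside 4.1% of all genes called higher. Serpinf1 rose most, from 10.9 and 9.36 CPM in WT1 and WT3 to 599, 464 and 340 CPM in H7, M4 and H4 (log2 fold change 5.53 ± 0.33 SE, edgeR adjusted p = 0.00118). Mest rose by a log2 fold change of 2.27 (adjusted p = 0.0146), Pi15 by 2.398 (0.0308), Sparc by 1.82 (0.0891) and Snai2 by 1.25 (0.0491). Over the 5 comparisons that left out 1 line each, Serpinf1 stayed called in 5, Mest and Pi15 in 4, Snai2 in 3 and Sparc in 1. Without WT3 the edgeR adjusted p was 0.188 for Mest and 0.29 for Pi15, Snai2 was lost without WT1 and without WT3 (0.171 and 0.462), and Sparc reached 0.599. Among members these genes did not all differ between libraries in that direction. Serpinf1 was at 3.66 CPM in GR17 and 19.3 CPM in GR19, with 5.85 CPM in GR18, Pi15 was at 10.1, 5.02 and 14.4 CPM, and Snai2 at 7.32, 12.54 and 5.25 CPM.

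Of the 18 genes ranked by SOX4KO against control in members, 17 were tested in bulk and 4 were called in the same direction, beside 6.27% of all genes called in either direction. Csn1s1 rose from 1.81 and 0.996 CPM in WT1 and WT3 to 44.9, 22.7 and 34.7 CPM in H7, M4 and H4 (log2 fold change 4.62 ± 0.45 SE, edgeR adjusted p = 0.00657). Col11a1 rose by 1.14 (adjusted p = 0.0566), while Tes fell by 1.01 on the log2 scale (0.0229) and Idh2 fell by 0.77 (0.0675). Foxa1 was at 154 and 130 CPM in the control lines and 83.8, 54.7 and 97.7 CPM in the SOX4KO lines and did not pass (adjusted p = 0.11). Cdkn1a was at 116 and 133 CPM and at 159, 94.7 and 115 CPM, with overlapping groups (adjusted p = 0.988). None of the 17 tested genes was called in the opposite direction. Over the 5 comparisons that left out 1 line each, Csn1s1 stayed called in 5, Tes in 3 and Col11a1 and Idh2 in 2. The calls of Tes, Col11a1 and Idh2 were lost without WT1 and without WT3, and those of Col11a1 and Idh2 also without H7.

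Some cell cycle genes were called lower in the bulk SOX4KO lines, and none was called higher. Of the 12 cycle genes of the rule, 7 were called lower, beside 2.17% of all genes. All 7 calls were lost without WT1 and without WT3. Over the 5 comparisons that left out 1 line each, Top2a and Ube2c stayed called in 1, Mcm5 in 2 and Ccnb1, Cenpf, Mcm3 and Mcm6 in 3. Of the lists outside the rule 11 of 45 G2/M genes and 8 of 29 S phase genes were called lower and none higher, with median log2 fold changes of -0.77 and -0.73. Ccnb1 fell from 22.3 and 23.9 CPM to 8.09, 9.72 and 7.18 CPM (log2 fold change -1.48 ± 0.25 SE, adjusted p = 0.0275), and Chaf1b had a log2 fold change of -1.70 (adjusted p = 0.0298). In single-cell members, Ccnb1 was at 142, 122 and 98.1 CPM in GR17, GR18 and GR19 and Chaf1b at 106, 101 and 108 CPM. Of the luminal list, Ehf, Cd24a, Prom1 and Tspan8 were called lower in bulk and none of 15 genes higher. Prom1, a surface protein of luminal cells, was also at least 2-fold lower in both SOX4KO libraries among members, at 49.4, 11.7 and 9.63 CPM.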

How the data were processed

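For bulk RNA the authors deposited counts of reads on 38293 gene identifiers, made with HTSeq, and the single-cell counts the authors deposited are UMIs for each gene in each well of 3 plates. Both were without normalization. The submitters' processing notes name STAR 2.4.2a, Picard, HTSeq, R 3.6.1, Seurat and the builds NCBIM37 and mm9, with no role or order. Bulk lines of the tables that name no gene, which held 71.6% to 83.9% of all reads listed, were left out, as was spike-in RNA. Bulk libraries had 3050323 to 4678497 reads on genes, and the kept cells of a single-cell library 7714119 to 8296953 UMIs. The single-cell tables list 15150 genes.

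UMIs of each population were added up within a library and scaled to CPM. Differences are log2 of (CPM + 1) for genes averaging 20 CPM or more in the sums compared, without the 16 genes of the rule. A gene was counted where it passed 2-fold in 1 direction in every library. UMIs and CPM are not corrected for length, and no level was compared between genes. With 1 control library no test was made on single cells, and the 95% intervals (exact Poisson for CPM, Clopper-Pearson for shares) cover counting error only. No doublet caller was run. The genes named were those of the rule, the label markers, Sox4, the 10 highest and 6 lowest in members and the 10 highest and 8 lowest in SOX4KO members (by the smallest difference, at 50 CPM or more), and genes of the lists.

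Bulk counts of 2 control and 3 SOX4KO lines, which were not separated by cell type, were tested with edgeR 4.0.16 in R 4.3.3 (quasi-likelihood test, filterByExpr, TMM, Benjamini-Hochberg adjusted p under 0.1). The p-values measure the spread between these lines, and the labels do not match them to single-cell libraries. Python 3.11.15 with numpy 2.4.6, pandas 2.3.3 and scipy 1.17.1 was used for the rest. Steps were tested on simulated data. Members and lists were chosen with earlier results of these data known, and the interferon, chemokine and cytokine, and p53 lists and the STAT5 motif after values were seen. Alternatives covered the limits of R and C, UMI minimums of 500 and 2000, thinning to 5000 UMIs, the CPM minimum and pseudocount, DESeq2 1.42.0, the count filter, the p threshold, and leaving out each line or library.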

Additional observations from a re-analysis of the deposited data

Results flagged for a closer look

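For 9 of 58 named genes searched (15.5%) the difference between SOX4KO and control in cycling luminal-like cells had 1 sign in both single-cell libraries while all 3 bulk SOX4KO lines lay on the opposite side of both bulk control lines, and the difference between the assays was not tested. Over all 5804 genes of 20 CPM or more in these cells that were tested in bulk, 559 (9.63%) did the same. Interferon genes under 20 CPM were not searched, and Oas1a, at 0, 17.56 and 13.65 CPM in these cells of GR17, GR18 and GR19, also had all bulk SOX4KO lines below both controls (log2 fold change -1.38). Given as the mean log2 difference over the 2 SOX4KO libraries in these cells, then as the bulk log2 fold change, 5 were interferon-stimulated genes. Irf7 was at 4.20 and -1.05, Dhx58 at 2.99 and -0.82, Rtp4 at 2.07 and -0.83, Bst2 at 2.02 and -1.34, and Psmb8, a subunit of the immunoproteasome, at 0.66 and -0.77. Pglyrp1, which binds peptidoglycan, was at 0.85 and -0.91. The p53 targets Phlda3 and Perp were at -0.75 and 1.29 and at -0.060 and 0.87, and Plch2 at -0.25 and 0.73. In these cells Perp was at 203 (177 to 232), 194 (170 to 221) and 196 CPM (178 to 215) in GR17, GR18 and GR19. These intervals overlap, so the sign for Perp lies within counting error. In all other cells Perp was at 457, 556 and 483 CPM, the direction of bulk, and Phlda3 at 140, 153 and 86.6 CPM. Psmb8, Phlda3 and Perp were called in bulk (edgeR adjusted p under 0.1) and the other 6 were not. All 9 were picked for bulk lines that do not overlap, so the share of calls over all genes is no like measure for them. The p53 target list as a whole, drawn up after values were seen, had 10 of 12 genes lower in both SOX4KO libraries among these cells, with a median log2 difference of -0.37, beside 2194 of 6196 over all genes. In all other cells 7 of 12 were lower, beside 2738 of 6316 over all genes, with a median of -0.25. The list had a bulk median of 0.00 with 2 of 16 genes called higher, beside 4.1% of all genes.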

How the results depend on the processing

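The 162 members became 217 with the top tercile of R as luminal-like (16.8%, 14.6% and 27.9% of GR17, GR18 and GR19), 136 with the top quintile and 123 with C above its median (16.02% of GR19), and members were 15.7% of GR19 with limits set within each library. Against the other cells, the 24 genes higher and 84 lower became 13 and 55 with a pseudocount of 10 CPM, 11 and 29 at 50 CPM or more, 51 and 227 with no minimum, and 12 higher with limits within each library. Between SOX4KO and control members, the 96 higher and 43 lower became 42 and 24, 29 and 11, and 468 and 369 under the first 3 of these. Bulk calls (479 higher, 254 lower) became 1008 and 678 with genes of 1 count or more and 241 and 113 at an adjusted p under 0.05. Leaving out 1 library gave 26 (without GR18) to 44 (without GR19) genes higher and 86 (without GR18) to 142 (without GR17) lower than the other cells, and for SOX4KO members 143 to 177 higher and 118 to 121 lower. Leaving out 1 bulk line gave 30 (without WT3) to 624 (without M4) genes higher and 26 (without WT3) to 382 (without M4) lower, with 93 and 37 without WT1. The bulk log2 fold changes that changed sign over these leave-outs, none of them called in the full comparison, ranged from -0.018 to 0.24 for Aen, -0.12 to 0.14 for Ccng1, -0.24 to 0.14 for Cdkn1a, -0.19 to 0.0074 for Ei24, -0.21 to 0.21 for Inhba, -0.69 to 0.73 for Krt14, -0.042 to 0.22 for Lgals9, -0.39 to 0.17 for Ly6d, -0.056 to 0.19 for Mdm2, -0.091 to 0.49 for Polk, -0.097 to 0.20 for Sesn2 and -0.088 to 0.11 for Zmat3. Without the highest cell of each gene, an alternative chosen after seeing the data, 86 genes were higher and 40 lower in SOX4KO members, of which 71 and 34 were shared with the counts above. The cause of these changes was not tested. No paired analysis was possible because the lines are separate and their numbers were given in accession order. Counting error limits genes of few UMIs in the 39 to 80 members of a library.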

Other observations

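Immediate early genes, which rise within minutes of a stimulus or of dissociation, were present in cycling luminal-like cells at levels near those of other cells. Fos was at 606, 921 and 602 CPM in GR17, GR18 and GR19 against 483, 797 and 565 CPM in all other cells, and none of 11 stress genes differed by 2-fold in every library. Atf3, a stress-induced factor, was at 51.3, 41.8 and 39.8 CPM in cycling luminal-like cells, 111, 50.7 and 79.8 CPM in non-cycling luminal-like cells and 16.6, 12.6 and 16.2 CPM in cycling cells of low R. Sox9, a factor of mammary progenitors, was at 889, 947 and 911 CPM against 855, 1313 and 1187 CPM in all other cells. Trp53inp1, a p53 target, was the gene of the p53 list at least 2-fold lower than in non-cycling luminal-like cells in every library, at 25.6, 13.4 and 10.5 CPM against 72.8, 33.8 and 37.1 CPM. Among the CDK inhibitors and D cyclins, Rbl1, a relative of the retinoblastoma protein, was the gene at least 2-fold higher, at 64.1, 63.5 and 63.1 CPM against 7.66, 7.24 and 13.4 CPM. These values describe the same cells that the keratin and cycle limits selected and carry no test.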
